A study of Mus musculus with 24 samples.

Results

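The 10 genes Csf1r, Adgre1, Cd68, C1qa, C1qb, C1qc, Cd163, Marco, Clec4f and Timd4, which mark tissue macrophages and the Kupffer cells of the liver, were found by symbol among 40481 measured genes and followed through all 24 libraries. Every mouse was on the C57BL/6 background and had undergone a 75% resection of the small bowel. Abca1 fl/fl mice, called floxed below, carried a loxP-flanked gene for the cholesterol exporter ABCA1. Abca1 fl/fl X Villin-Cre mice, called Villin-Cre, carried the same allele and a Cre recombinase that the Villin promoter drives in intestinal epithelium, not in macrophages or hepatocytes. Mice of each genotype received GW3965, an agonist of the liver X receptors, at 1 mg/kg/day by mouth on 2 days a week over the last 5 of 10 weeks after surgery, or vehicle (0.5% carboxymethyl cellulose). Ileum and liver were sequenced with 3 libraries in each of the 4 groups per tissue. No group without resection is compared here, and the sources used here give neither age nor sex.

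Macrophages are phagocytes that depend on signalling through CSF1R, and those that settle in a tissue take up dying cells, lipoproteins and microbes. In the liver the resident population is the Kupffer cell, which sits inside the sinusoids and carries the lectin CLEC4F, the phosphatidylserine receptor TIMD4 and, in part, the scavenger receptor MARCO. In the gut wall macrophages lie beneath the epithelium and in the muscle layer. Macrophages are also the main source of the 3 chains of C1q, the recognition molecule of the classical complement pathway. Liver X receptors are active in macrophages, where they control cholesterol export. Because whole tissue was sequenced, fewer cells of a type and less RNA per cell cannot be told apart in any value below.

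Of the 10 genes, 7 had an entry in the RefSeq promoter table used here (GRCm38.p6). The 250 bases before the transcription start that RefSeq gives are shown for C1qb, as an example of the C1q chains whose levels moved side by side, and for Marco, the Kupffer cell gene with the largest difference between genotypes in the liver. The windows of C1qc and Clec4f are not printed, since the GENCODE annotation starts these genes further upstream and counts 151 and 71 of their 250 bases as untranslated first exon. Capitals mark GAGGAA or its reverse complement TTCCTC, the core letters bound by PU.1, the macrophage transcription factor encoded by Spi1. Both windows are given 5′ to 3′ on the minus strand, at chr4:136886201-136886450 for C1qb and chr1:120505025-120505274 for Marco.
C1qb: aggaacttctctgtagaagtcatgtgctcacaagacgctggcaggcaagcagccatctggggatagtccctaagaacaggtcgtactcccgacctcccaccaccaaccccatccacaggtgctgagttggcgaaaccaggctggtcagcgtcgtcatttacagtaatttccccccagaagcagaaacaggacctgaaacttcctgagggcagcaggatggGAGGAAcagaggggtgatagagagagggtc
Marco: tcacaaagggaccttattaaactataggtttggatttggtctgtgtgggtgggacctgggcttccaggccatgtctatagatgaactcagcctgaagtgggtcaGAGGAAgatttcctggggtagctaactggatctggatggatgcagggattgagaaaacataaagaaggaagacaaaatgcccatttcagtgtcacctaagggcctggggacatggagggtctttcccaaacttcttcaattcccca
The motif began 30 bases before the RefSeq start in C1qb and 146 in Marco, and it was also present in the windows of C1qc (193 bases before the start) and Cd68 (225). It was not among the letters of the Clec4f, Cd163 and Timd4 windows. That is 4 of 7 windows, beside 7639 of 32851 promoters of the same length (23.3%). A match is a stretch of letters and was not tested as a binding site.

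Expression is given in CPM, reads scaled to the assigned reads of the library, recovered from the log2 values that the authors deposited. Ileum libraries held 16.96 to 24.2 M assigned reads and liver libraries 26.4 to 32.3 M, so that 3 reads correspond to 0.124 to 0.176 CPM and 0.0928 to 0.113 CPM. The targeted gene Abca1 stood at 54.2 to 59.9 CPM in floxed vehicle ileum and at 25.7 to 30.6 CPM in Villin-Cre vehicle ileum, and with GW3965 at 251 to 438 CPM and 53.7 to 54.0 CPM. In the liver it stood at 327 to 342 CPM and 225 to 225.4 CPM with vehicle, and at 464 to 479 CPM and 377 to 382 CPM with GW3965. In most groups the 3 libraries were close to each other: the median variance between libraries of a group was 3.09 times the counting variance in the ileum and 2.83 times in the liver. Libraries of different groups differed by 11.3 to 58.5 times and 7.26 to 50.6 times. The exceptions were replicate 3 of floxed GW3965 in the ileum and replicate 1 of floxed GW3965 in the liver, called the libraries that stood apart. That liver library was the lowest of the 12 for 10 of 10 genes, and results that use it are given with it and, where a call, direction or count changed, also without it. The labels do not say which libraries came from separate animals, so p-values measure the spread between these libraries, which may be technical. With close libraries averaged, 1 of 90 results on these genes passed the adjusted threshold and 26 of 90 had an unadjusted p under 0.05. Averaging leaves 1 unit in 3 of the 4 groups of a tissue and 1 residual degree of freedom. The only spread left is that between the floxed GW3965 library that stood apart and the mean of the other 2 of its group, and each group with 1 unit borrows the spread of that pair, so these values say nothing of stability.

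Compared per length of exon in the floxed vehicle libraries, the C1q chains led in the ileum, with C1qa at 40.6, C1qb at 32.9 and C1qc at 20.6 CPM per kb. Csf1r followed at 15.6, Cd68 at 5.31, Adgre1 at 3.20, Cd163 at 1.47 and Timd4 at 0.712 CPM per kb. Marco and Clec4f, which set Kupffer cells apart, were at the limit of detection in the ileum: Clec4f had no read in 9 of 12 libraries and at most 3, and Marco had no read in 7 and at most 8. In the liver C1qb (71.0 CPM per kb) and C1qa (68.9) did not differ beyond their spread, and Clec4f (56.4) and C1qc (49.4) came next. Below them stood Marco at 30.4, Csf1r at 24.6, Cd68 at 17.6, Adgre1 at 11.7, Cd163 at 4.90 and Timd4 at 4.46 CPM per kb. The order of the liver changed with the group: in Villin-Cre vehicle liver Marco was the first of the 10, at 214 CPM per kb. Across libraries C1qb stood at 0.699 to 0.954 times C1qa per kb in the ileum and 0.880 to 1.07 times in the liver, and C1qc at 0.455 to 0.607 and 0.647 to 0.733 times. In the liver C1qc was at 0.647, 0.664 and 0.649 times C1qa in Villin-Cre GW3965 libraries and at 0.689 to 0.733 times in the other groups. The liver thus carried all 3 of its resident markers in every library, as its label says. The 2 tissues were deposited in separate tables and levels were not tested across them.

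The liver of Villin-Cre mice held more RNA of all 10 genes than the liver of floxed mice when both had received vehicle. Marco, a scavenger receptor for bacteria and modified lipoproteins, differed most (6.99-fold), then the endosomal glycoprotein gene Cd68 (3.23-fold), the C1q chains (2.22- to 2.23-fold), Cd163 (2.09-fold), Csf1r (1.79-fold), Adgre1 (1.77-fold), Timd4 (1.43-fold) and Clec4f (1.31-fold). Groups did not overlap for any of the 10. How many of all genes had groups without overlap was not counted, here or in any comparison below. By limma on log2(CPM + 0.5), the scale of every fold change here, with Benjamini-Hochberg adjustment, 10 of 10 passed an adjusted p of 0.05, where 45.1% of all 17520 genes tested in the liver were called higher, 11.7% lower and 56.8% in either direction. The median over the 10 genes was 1.11 on the log2 scale and that over all genes tested 0.26. With libraries rescaled by the median of gene ratios, which took the all-gene median to 0.01 and the share of calls that were higher from 79.3% to 49.3%, the calls of 8 genes held, and Clec4f (log2 fold change 0.11 ± 0.11, adjusted p = 0.478) and Timd4 (0.24 ± 0.15, adjusted p = 0.203) no longer passed. After averaging close libraries 0 of 10 passed, and 7 had an unadjusted p under 0.05.

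**Figure D1:**
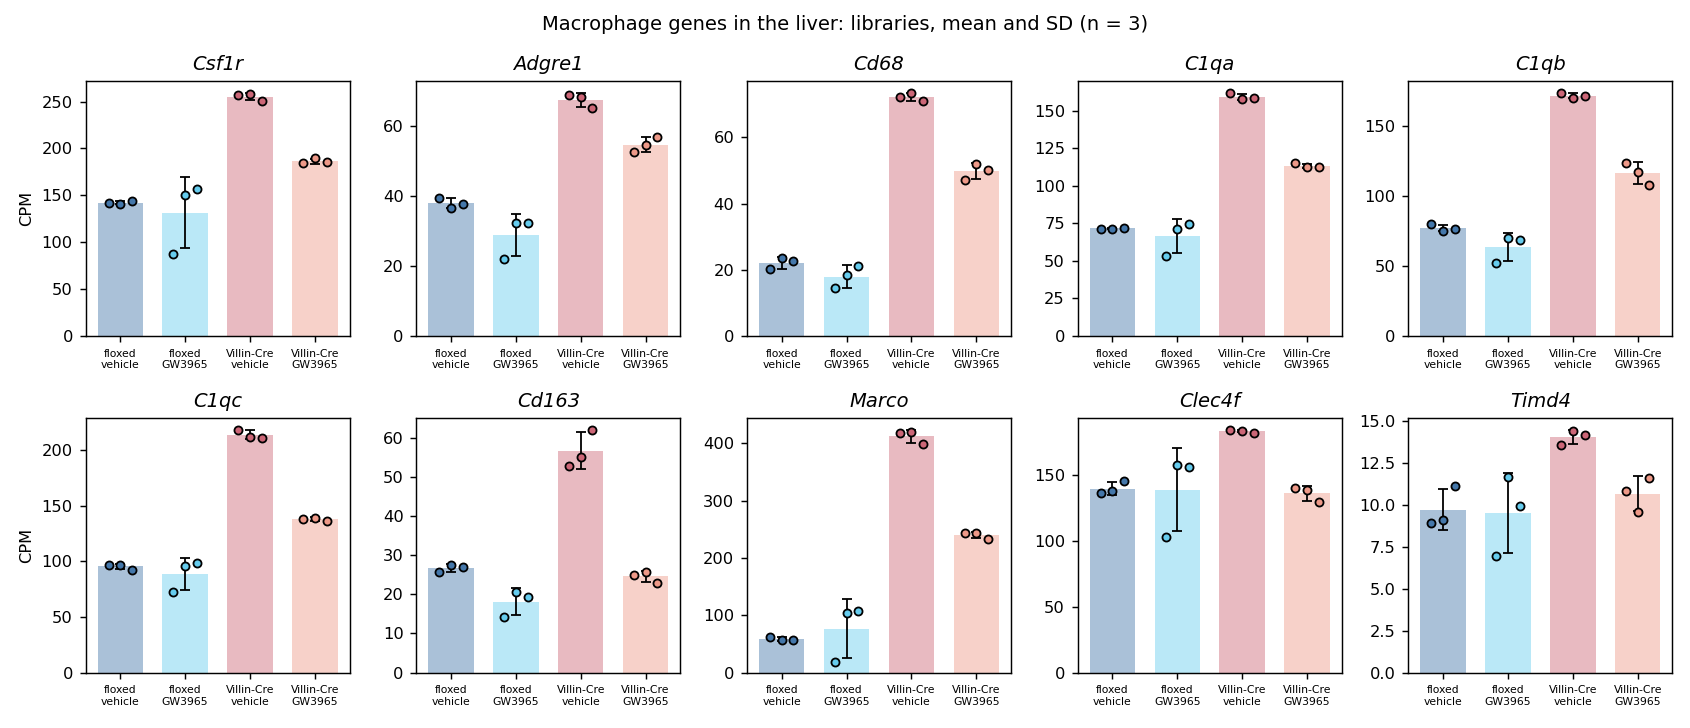
Level of the 10 macrophage genes in each liver library (points, CPM, linear axes from 0), with the mean (bar) and SD (whisker) of the 3 libraries per group. Villin-Cre vehicle libraries are the highest for all 10 genes, and 1 floxed GW3965 library lies below the other 11 throughout.

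Csf1r encodes the receptor for CSF1 and IL-34 on which macrophage survival rests. Its liver level was 142, 141 and 144 CPM in the floxed vehicle libraries and 257, 258 and 251 CPM in Villin-Cre vehicle libraries, a log2 difference of 0.84 ± 0.15 (SE, adjusted p = 2.49e-04). With GW3965 the floxed libraries had 87.7, 150 and 157 CPM, against 184, 189 and 186 CPM in Villin-Cre liver. The lowest of those values belongs to the library that stood apart, and the other 2 of its group lay above all floxed vehicle libraries. Some Csf1r exons overlap Hmgxb3 on the opposite strand, and the sources used here give no strand setting for the counting, so reads of this pair cannot be told apart. Adgre1, the gene of the macrophage surface antigen F4/80 (chr17:57358691-57483527), had 39.5, 36.7 and 37.7 CPM with vehicle in floxed liver, and 68.8, 68.3 and 65.2 CPM in Villin-Cre liver (log2 difference 0.82 ± 0.11). With GW3965 the values were 21.9, 32.3 and 32.3 CPM and 52.5, 54.5 and 56.9 CPM, again without overlap between genotypes. Cd68 (chr11:69664213-69666153) was at 20.1, 23.6 and 22.5 CPM in floxed vehicle and 72.3, 73.3 and 70.9 CPM in Villin-Cre vehicle liver, a log2 difference of 1.69 ± 0.11 (adjusted p = 1.03e-08). It stood at 14.4, 18.3 and 21.1 CPM and 47.1, 52.1 and 50.3 CPM with GW3965, so that the lowest Villin-Cre library lay above the highest floxed one under either treatment.

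The genes of the 3 C1q chains lie next to each other on the minus strand of chromosome 4 (GRCm38), C1qb at 136880129 to 136886187, C1qc at 136889804 to 136893065 and C1qa at 136895917 to 136898803. In vehicle liver C1qa rose from 71.5, 71.3 and 72.2 CPM in floxed mice to 162, 158 and 159 CPM in Villin-Cre mice. C1qb went from 79.8, 75.0 and 76.9 CPM to 174, 170 and 172 CPM, and C1qc from 96.7, 97.0 and 92.4 CPM to 218, 212 and 210 CPM. The 3 log2 differences were 1.15 ± 0.09, 1.15 ± 0.09 and 1.16 ± 0.09, so the chains kept their proportions while their level differed. With GW3965 the chains were lower in Villin-Cre liver than with vehicle, C1qa at 115, 113 and 113 CPM, C1qb at 124, 117 and 108 CPM and C1qc at 138, 139 and 136 CPM. The floxed GW3965 libraries lay at 53.4, 71.0 and 74.9 CPM for C1qa, 52.2, 70.1 and 68.9 CPM for C1qb and 72.5, 95.7 and 98.3 CPM for C1qc, with the library that stood apart lowest each time. The proteases that C1q activates and their inhibitor went the other way. C1ra, C1rb, C1s1, C1s2 and Serping1 were lower in Villin-Cre than in floxed vehicle liver in 5 of 5 cases (median log2 difference -0.48), among them Serping1, which encodes the C1 inhibitor (513 ± 6.34 against 406 ± 6.28 CPM, SD, n = 3), C1s1 (212 ± 2.32 against 146 ± 1.33 CPM) and C1ra (187 ± 4.46 against 136 ± 3.35 CPM). Hepatocytes make much of these proteases, and the hepatocyte list is given below.

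Marco (chr1:120474538-120505024, minus strand) showed the widest range of the 10 genes. Its liver level was 61.9, 57.1 and 56.8 CPM in floxed vehicle libraries and 418, 420 and 400 CPM in Villin-Cre vehicle libraries (log2 difference 2.81 ± 0.46, adjusted p = 1.25e-04). With GW3965 the floxed libraries had 17.8, 105 and 108 CPM, against 243, 243 and 234 CPM in Villin-Cre liver. The SE of Marco is large because of the floxed GW3965 libraries, 1 of which was at 17.8 CPM. Relative to Csf1r in the same library, Marco stood at -1.33 to -1.19 on the log2 scale in floxed vehicle liver, at -2.27 to -0.52 in floxed GW3965, at 0.67 to 0.70 in Villin-Cre vehicle and at 0.33 to 0.40 in Villin-Cre GW3965 liver. The ranges of the floxed and the Villin-Cre groups did not overlap, and the ratio was not tested. Cd163 (chr6:124304656-124330527) encodes the scavenger receptor that clears haemoglobin bound to haptoglobin. Vehicle levels were 25.6, 27.6 and 27.0 CPM in floxed liver, against 52.9, 55.1 and 62.0 CPM in Villin-Cre liver (log2 difference 1.07 ± 0.11). With GW3965 the floxed libraries were at 14.3, 20.7 and 19.4 CPM and the Villin-Cre libraries at 25.05, 25.6 and 23.0 CPM. The Villin-Cre GW3965 range touched that of floxed vehicle liver.

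Of the genes taken here for resident Kupffer cells, Clec4f and Timd4 differed least of the 10 with vehicle, and Marco differed most (6.99-fold). Clec4f (chr6:83644542-83656187, minus strand), a lectin receptor of Kupffer cells, had 136, 137 and 145 CPM in floxed vehicle liver, against 184, 183 and 182 CPM in Villin-Cre vehicle liver (log2 difference 0.39 ± 0.12, adjusted p = 0.0114). Its GW3965 levels of 102, 157 and 156 CPM in floxed liver overlapped those of Villin-Cre liver, 140, 138 and 129 CPM. Timd4 (chr11:46810800-46844332), the receptor by which long-lived resident macrophages bind phosphatidylserine on dying cells, had 8.91, 9.09 and 11.1 CPM in floxed vehicle liver, against 13.6, 14.4 and 14.2 CPM in Villin-Cre vehicle liver (0.52 ± 0.15, adjusted p = 0.00910). Its GW3965 values, 6.95, 11.6 and 9.92 CPM in floxed mice, then 10.8, 9.56 and 11.6 CPM in Villin-Cre mice, also overlapped. Relative to Csf1r, Clec4f stood at -0.06 to 0.01 on the log2 scale in floxed vehicle libraries and at -0.49 to -0.46 in Villin-Cre vehicle libraries. These ranges do not overlap, and the ratio was not tested.

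Under GW3965 the genotypes still differed in the liver for 8 of 10 genes, all higher in Villin-Cre mice, where 40.9% of all genes tested were called higher, 15% lower and 55.9% in either direction. The log2 differences were 2.02 ± 0.46 for Marco, 1.47 ± 0.11 for Cd68, 0.93 ± 0.11 for Adgre1, 0.87 ± 0.09 for C1qb, 0.78 ± 0.09 for C1qa, 0.64 ± 0.09 for C1qc, 0.55 ± 0.15 for Csf1r and 0.44 ± 0.11 for Cd163. Clec4f (-0.003 ± 0.12, adjusted p = 0.987) and Timd4 (0.18 ± 0.15, adjusted p = 0.323) did not pass. The median over the 10 genes was 0.71 and that over all genes 0.21. Rescaling by the median of gene ratios ended the calls of Csf1r (0.31, adjusted p = 0.0854) and Cd163 (0.21, adjusted p = 0.109), turned the sign of Timd4 (-0.04, adjusted p = 0.826) and took the share of all calls that were higher from 73.1% to 51.3%. Without the floxed GW3965 library that stood apart, Marco differed by 1.17 ± 0.04 and Csf1r by 0.28 ± 0.03, all 8 calls held, and Clec4f was lower in Villin-Cre liver (-0.21 ± 0.04, adjusted p = 2.58e-05). Averaging close libraries left only Cd68 past the threshold, and 6 genes had an unadjusted p under 0.05. The genotype contrasts under vehicle and under GW3965 use different libraries.

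**Figure D2:**
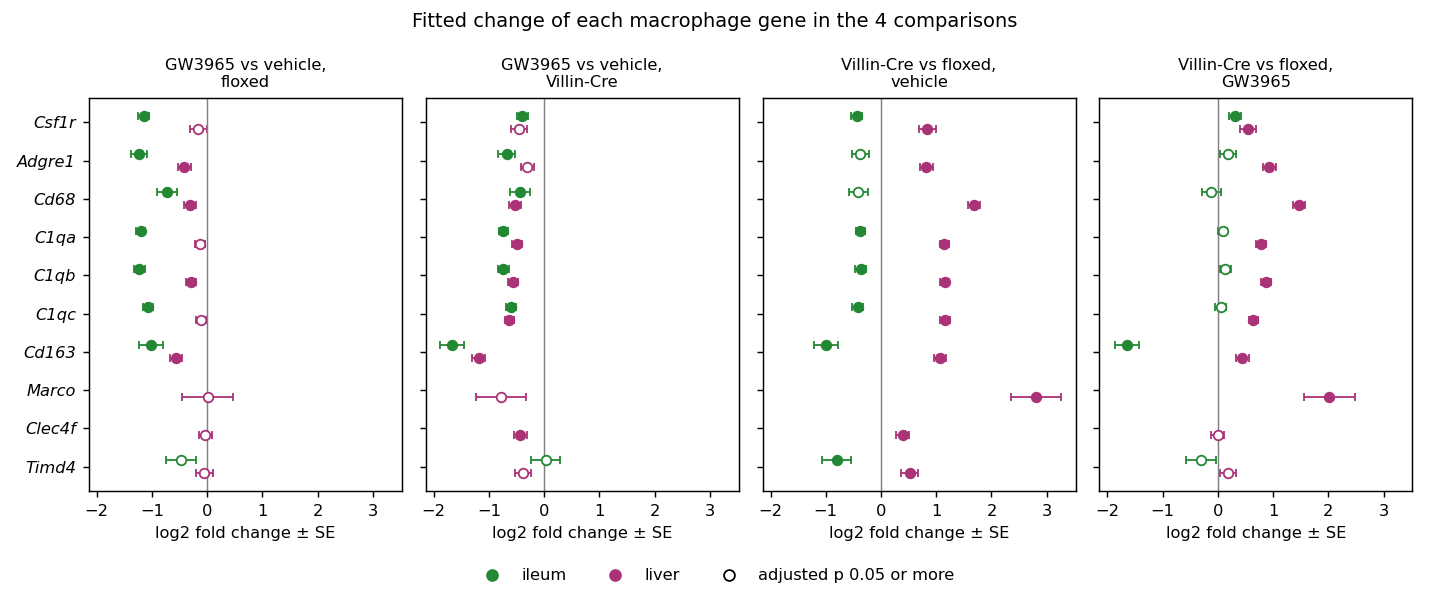
Fitted log2 fold change (points, whiskers SE) of each gene in the 4 comparisons, ileum in green and liver in purple, open where the adjusted p was 0.05 or more. The genotype differences under vehicle lie to the left of 0 in the ileum and to the right in the liver, from -0.36 to -0.99 and from 0.39 to 2.81; Marco and Clec4f were not tested in the ileum.

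Other macrophage genes of the liver were read from lists chosen with earlier results of these data known. With vehicle, 45.1% of all genes tested were called higher in Villin-Cre liver and 11.7% lower. Of 12 further genes of tissue macrophages in general, 12 were higher in Villin-Cre than in floxed vehicle liver (median log2 difference 1.17), among them Mpeg1, a pore-forming protein of phagosomes (131 ± 4.01 against 287 ± 5.11 CPM), the lysozyme gene Lyz2 (92.3 ± 4.20 against 188 ± 2.00 CPM) and the protease gene Ctss (61.6 ± 1.36 against 149 ± 3.99 CPM). Of 10 further Kupffer cell identity genes, 8 were higher and none lower (median 0.62). Cd5l, which encodes a protein secreted by macrophages, stood at 182 ± 1.25 against 393 ± 3.07 CPM, Nr1h3, which encodes liver X receptor alpha, differed by 0.15 ± 0.05, and Id3 by 0.16 ± 0.34 (adjusted p = 0.704). All 7 genes of the CSF1 axis and macrophage transcription factors were higher (median 0.84), with Maf at 88.3 ± 2.32 against 129 ± 3.36 CPM and Zeb2 at 66.7 ± 1.08 against 108 ± 5.56 CPM. Of 8 other scavenger and uptake genes 7 were higher (median 0.67), among them the receptor genes Axl (1.17 ± 0.05) and Stab1 (0.51 ± 0.09), while Gas6, the ligand of AXL, did not pass (-0.22 ± 0.10, adjusted p = 0.0750).

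The lipid-associated macrophage list differed most of the macrophage lists in this comparison, with 6 of 7 genes higher, 1 lower and a median of 1.86. Lgals3, which encodes galectin-3, had 15.6 ± 0.844 CPM in floxed vehicle liver against 187 ± 6.57 CPM in Villin-Cre vehicle liver (log2 difference 3.54 ± 0.09). Mmp12, the macrophage elastase gene, stood at 15.2 ± 1.46 and 138 ± 8.20 CPM, and Spp1, the osteopontin gene that bile duct cells also express, at 89.5 ± 2.98 and 217 ± 4.19 CPM. The gene that was lower was the fatty acid binding protein gene Fabp5, named after its value was seen. Monocyte genes were higher in 6 of 7 cases (median 1.00), and neutrophil genes in 5 of 5 tested (median 1.51). With GW3965 the same contrast gave 12 of 12 general macrophage genes, 6 of 10 Kupffer cell identity genes and 6 of 7 lipid-associated genes higher and none lower, and 5 of 5 genes of the C1 proteases and inhibitor lower. There 40.9% of all genes tested were called higher and 15% lower. Without the library that stood apart, Kupffer cell identity genes gave 7 higher and 1 lower and lipid-associated genes 6 higher and 1 lower, and the counts of the other 2 lists were the same.

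Genes of other liver cells moved with this genotype difference. Hepatocyte genes were lower in Villin-Cre vehicle liver in 7 of 8 cases (median -0.61), and their summed level was 77532 to 79764 CPM in floxed and 51254 to 51753 CPM in Villin-Cre libraries. Alb, the albumin gene and the most abundant of them, stood at 57418 ± 994 and 37761 ± 261 CPM. Fibroblast genes were higher in 7 of 7 cases (summed 539 to 547 against 1030 to 1050 CPM), and bile duct genes in 6 of 6 (121 to 123 against 278 to 284 CPM). Most of the bile duct sum was Spp1 (89.5 ± 2.98 against 217 ± 4.19 CPM), which is also on the lipid-associated list. Endothelial genes were higher in 4 of 7 and lower in 1 (542 to 567 against 598 to 604 CPM). Monocyte genes summed to 16.7 to 19.5 against 43.0 to 45.6 CPM, and neutrophil genes to 9.27 to 11.4 against 32.5 to 34.9 CPM. The 10 macrophage genes summed to 676 to 685 against 1585 to 1620 CPM. Of the other lists, stellate cells gave 6 higher and 1 lower of 7, and dendritic cells 4 higher of 7 tested. T and NK cells gave 4 higher of 9, plasma cells 3 of 5 and smooth muscle 6 of 9. Enterocytes gave 2 higher and 1 lower of 6, enteric neurons and glia 0 of 2, and B cells 3 lower of 7. The only adipocyte gene tested, Cidec, was higher (56.1 ± 0.665 against 215 ± 13.1 CPM). Of all genes tested, 45.1% were called higher and 11.7% lower in this contrast, so counts such as 4 of 9 or 4 of 7 higher lie near that share. Counts by list are not given after rescaling. No gene of these lists was at 0 in all 12 libraries. The part of these other lists in the differences of the macrophage genes was not tested.

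**Figure D3:**
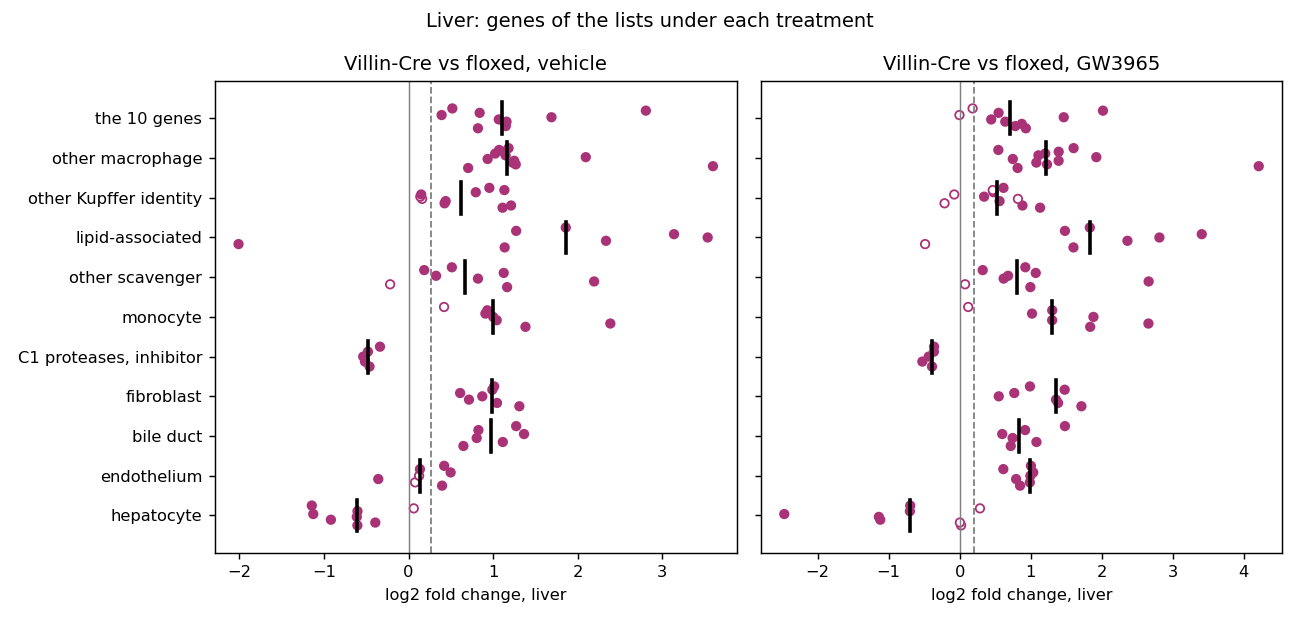
Log2 fold change of each tested gene of 11 lists, Villin-Cre against floxed liver, under vehicle (left) and GW3965 (right); filled points have an adjusted p under 0.05, the bar is the list's median and the dashed line the median of all genes tested. Under vehicle the 10 genes have a median of 1.11, the lipid-associated list 1.86, and the C1 proteases with their inhibitor -0.48.

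GW3965 was given at a low oral dose, and its effect on these genes in the liver was read in each genotype. In Villin-Cre liver 6 of 10 genes fell with GW3965, where 9.03% of all genes tested were called lower, 2.85% higher and 11.9% in either direction. Cd163 fell by 1.19 on the log2 scale (SE 0.11, 2.28-fold), C1qc by 0.63, C1qb by 0.56, Cd68 by 0.53, C1qa by 0.49 and Clec4f by 0.43. Values for the other 4, which did not pass, were -0.78 ± 0.46 for Marco (adjusted p = 0.302), -0.45 ± 0.15 for Csf1r (0.0653), -0.39 ± 0.15 for Timd4 (0.116) and -0.30 ± 0.11 for Adgre1 (0.0998). In all 10 genes, each GW3965 library lay below each vehicle library, and the share of all genes that did so was not counted. The shared spread of the fit includes the floxed GW3965 library that stood apart: with only the groups compared, all 10 genes were called lower. In that fit 3675 of all 17520 genes tested were called lower, against 1582 with all groups. The median over the 10 genes was -0.51 and that over all genes -0.08. The call of Clec4f was lost without any 1 of the 6 libraries compared, and after rescaling (-0.33, adjusted p = 0.0824), which took the share of all calls that were higher from 23.98% to 59.9%. Averaging left 0 of 10 past the threshold, and only Cd163 had an unadjusted p under 0.05. Beside this, bile duct genes were lower with GW3965 in Villin-Cre liver in 5 of 6 cases (summed 278 to 284 CPM with vehicle and 139.8 to 148 CPM with GW3965). Spp1, also on the lipid-associated list, made up most of these sums (217 ± 4.19 and 106 ± 4.27 CPM). Neutrophil genes were lower in 4 of 5 tested (32.5 to 34.9 against 18.7 to 20.8 CPM) and stellate cell genes in 5 of 7 (793 to 802 against 598.5 to 608 CPM). Of the other macrophage lists, 5 of 12 general macrophage genes (median -0.27), 4 of 10 Kupffer cell identity genes (median -0.38) and 3 of 7 lipid-associated genes (median -0.47) were lower. Hepatocyte genes were lower in 1 of 8 cases and endothelial genes in 0 of 7. The part of these cell types was not tested.

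In floxed liver the direction of several genes rested on the library that stood apart. With all 3 GW3965 libraries, 4 of 10 genes fell, where 19.7% of all genes tested were called lower, 10.4% higher and 30.1% in either direction: Cd163 by 0.56 (SE 0.11), Adgre1 by 0.41 (SE 0.11), Cd68 by 0.31 (SE 0.11) and C1qb by 0.29 (SE 0.09), on the log2 scale. Marco (0.01 ± 0.46), Clec4f (-0.04 ± 0.12), Csf1r (-0.16 ± 0.15), C1qa (-0.12 ± 0.09), C1qc (-0.11 ± 0.09) and Timd4 (-0.05 ± 0.15) did not pass. Without replicate 1 of the GW3965 group, 3 genes were called higher with GW3965, Marco (0.86 ± 0.04, adjusted p = 1.17e-18), Clec4f (0.17 ± 0.04, adjusted p = 7.25e-04) and Csf1r (0.11 ± 0.03, adjusted p = 0.0115). Cd163 (-0.41 ± 0.07), Adgre1 (-0.23 ± 0.06) and C1qb (-0.15 ± 0.05) remained lower, and Cd68 (-0.16 ± 0.07, adjusted p = 0.0629) did not pass. Rescaling also ended the call of Cd68 (-0.26, adjusted p = 0.0672), turned the sign of Clec4f (0.01, adjusted p = 0.950), and took the share of all calls that were higher from 34.5% to 44.8%. The call of Cd68 was also lost without floxed vehicle replicate 2 or 3 or floxed GW3965 replicate 2, and that of C1qb without floxed vehicle replicate 1 or 3. On averaged libraries 0 of 10 passed, and Cd163 had an unadjusted p under 0.05. Beside this, endothelial genes were lower with GW3965 in 7 of 7 cases (summed 328 to 396 CPM against 542 to 567 CPM with vehicle), bile duct genes in 5 of 6 (48.6 to 71.9 against 121 to 123 CPM) and fibroblast genes in 6 of 7 (369 to 400.3 against 539 to 547 CPM). Spp1, also on the lipid-associated list, made up most of the bile duct sums (38.1 ± 6.53 against 89.5 ± 2.98 CPM). Without the library that stood apart the counts were the same, with GW3965 sums of 328 to 334, 48.6 to 53.2 and 369 to 377 CPM. Enterocyte genes summed to 1485 CPM in that library and to 408 and 409 CPM in the other 2 of its group. In the other groups they summed to 1940 to 2001 CPM (floxed vehicle), 3966 to 4077 CPM (Villin-Cre vehicle) and 3219 to 3477 CPM (Villin-Cre GW3965). Most of the enterocyte sum in each group was 1 gene, Apoa4, and 6 of the 10 enterocyte genes could be tested in the liver. Apoa4 stood at 1662 ± 26.1 CPM in floxed vehicle and 532 ± 612 CPM in floxed GW3965 liver. In Villin-Cre liver it stood at 3742 ± 63.0 CPM with vehicle and 3066 ± 126 CPM with GW3965. The part of these lists was not tested.

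In the ileum, 8 of the 10 genes could be tested, and GW3965 lowered most of them in each genotype. In floxed mice 7 of 8 fell, Adgre1 by 2.36-fold, C1qb by 2.35-fold, C1qa by 2.30-fold, Csf1r by 2.22-fold, C1qc by 2.10-fold, Cd163 by 2.03-fold and Cd68 by 1.66-fold, where 20.9% of all 18656 genes tested in the ileum were called lower, 14.7% higher and 35.6% in either direction. Timd4 did not pass (log2 -0.47 ± 0.27, adjusted p = 0.188). In Villin-Cre mice the same 7 genes were called lower, Cd163 most (3.18-fold), the C1q chains by 1.52- to 1.67-fold, Adgre1 by 1.60-fold, Cd68 by 1.35-fold and Csf1r by 1.32-fold, where 31.1% of all genes were called lower, 21.5% higher and 52.5% in either direction. The medians over the 8 genes were -1.11 and -0.64 on the log2 scale, and those over all genes -0.08 and -0.11. Rescaling took the share of all calls that were higher from 41.2% to 53.4% in floxed mice and ended only the call of Cd68 in Villin-Cre mice (-0.34, adjusted p = 0.110). That call was also lost without Villin-Cre vehicle replicate 2 or 3 or any 1 of the 3 Villin-Cre GW3965 libraries. On averaged libraries 0 of 8 passed in either genotype, and 6 and 4 had an unadjusted p under 0.05.

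**Figure D4:**
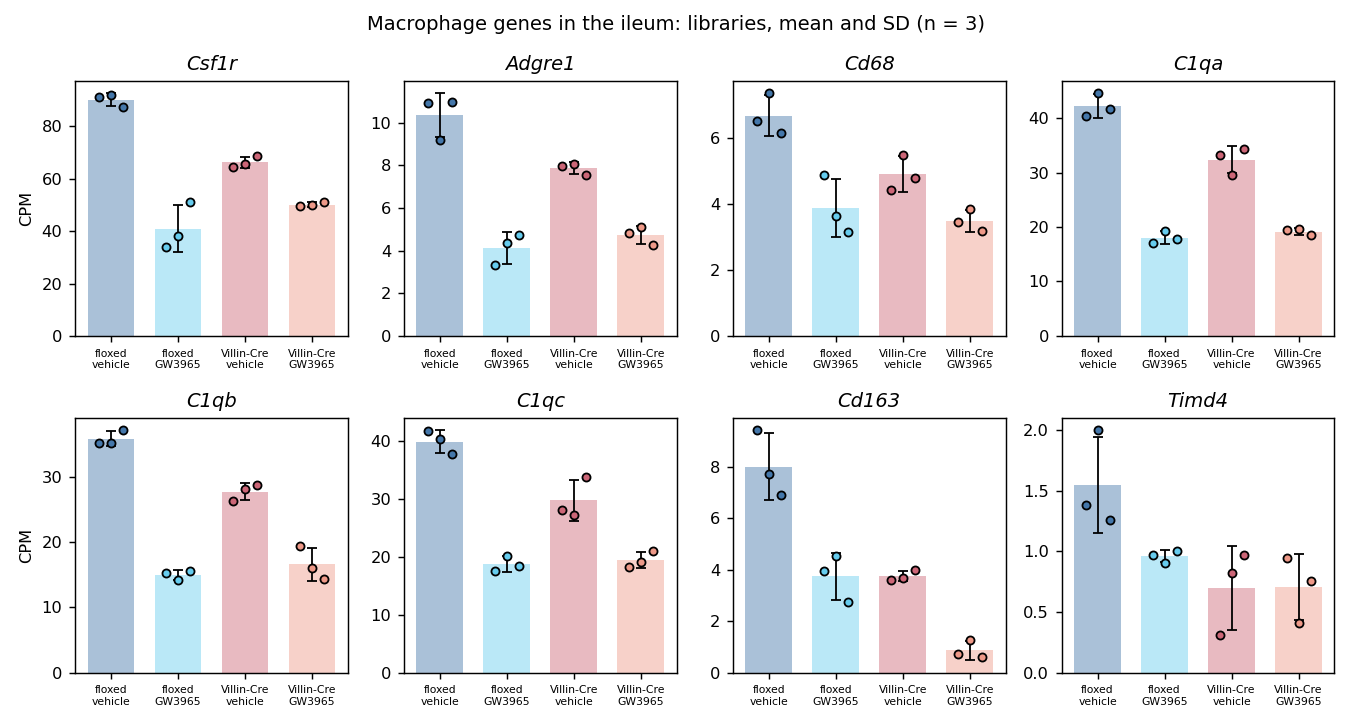
Level of the 8 tested macrophage genes in each ileum library (points, CPM, linear axes from 0), with the mean (bar) and SD (whisker) of the 3 libraries per group. Floxed vehicle libraries are the highest for 8 of 8 genes, and Cd163 is lowest in the Villin-Cre GW3965 libraries, at 0.616 to 1.28 CPM.

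Ileal Csf1r stood at 91.1, 92.1 and 87.3 CPM in floxed vehicle and 33.9, 38.1 and 50.9 CPM in floxed GW3965 libraries (log2 change -1.15 ± 0.10, adjusted p = 1.66e-07). In Villin-Cre mice it was 64.6, 65.4 and 68.6 CPM with vehicle and 49.5, 49.8 and 51.1 CPM with GW3965. The highest floxed GW3965 value is that of the ileal library that stood apart, and without it the change was -1.32 ± 0.07. Adgre1 was at 10.9, 9.18 and 10.98 CPM and 3.31, 4.35 and 4.75 CPM in floxed mice (vehicle, then GW3965) and at 7.97, 8.06 and 7.54 CPM and 4.82, 5.12 and 4.26 CPM in Villin-Cre mice. Cd68 was at 6.52, 7.35 and 6.15 CPM and 4.86, 3.62 and 3.14 CPM in floxed mice, and at 4.42, 5.49 and 4.79 CPM and 3.45, 3.84 and 3.17 CPM in Villin-Cre mice. Vehicle and GW3965 groups of a genotype did not overlap for these 3 genes.

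The C1q chains again moved side by side. Ileal C1qa was at 40.3, 44.6 and 41.6 CPM in floxed vehicle libraries, 17.03, 19.3 and 17.8 CPM in floxed GW3965, 33.3, 29.5 and 34.3 CPM in Villin-Cre vehicle and 19.4, 19.6 and 18.5 CPM in Villin-Cre GW3965 libraries. C1qb followed the same order at 35.1, 35.2 and 37.1 CPM, then 15.3, 14.1 and 15.5 CPM, then 26.3, 28.1 and 28.7 CPM, then 19.3, 16.0 and 14.3 CPM. C1qc was at 41.6, 40.2 and 37.7 CPM, 17.5, 20.2 and 18.3 CPM, 28.1, 27.2 and 33.7 CPM, and 18.1, 19.1 and 20.9 CPM. The 2 GW3965 groups overlapped for each chain, whereas the 2 vehicle groups did not. The C1 proteases and their inhibitor went the same way as the chains with GW3965: 5 of 5 fell in floxed mice (median -0.59; 3 of 5 and -0.62 without the library that stood apart) and 5 of 5 in Villin-Cre mice (median -1.12). In floxed mice Serping1 stood at 66.9 ± 2.10 CPM with vehicle and 36.1 ± 7.04 with GW3965, and in Villin-Cre mice at 49.4 ± 1.64 and 16.6 ± 0.461 CPM. C1s1 stood at 27.0 ± 2.01 and 19.3 ± 1.56 CPM in floxed, then 23.3 ± 0.828 and 10.2 ± 0.779 CPM in Villin-Cre mice.

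Ileal Cd163 stood at 9.43, 7.71 and 6.88 CPM in floxed vehicle and 3.94, 4.52 and 2.75 CPM in floxed GW3965 libraries. In Villin-Cre libraries it was 3.60, 3.68 and 3.98 CPM with vehicle and 0.708, 1.28 and 0.616 CPM with GW3965. In that last group it was, per length, the lowest of the 8 tested genes (0.159 CPM per kb). Of the 8, Cd163 alone was called lower in Villin-Cre than in floxed mice under GW3965 (log2 difference -1.64 ± 0.22, adjusted p = 9.84e-06). Timd4 rested on 6 to 34 reads a library, at 1.38, 2.00 and 1.26 CPM and 0.973, 0.905 and 1.00 CPM in floxed mice and 0.308, 0.818 and 0.969 CPM and 0.945, 0.413 and 0.758 CPM in Villin-Cre mice.

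Between genotypes, ileal levels with vehicle ran opposite to the liver. All 8 tested genes had a lower mean in Villin-Cre than in floxed vehicle ileum, without overlap between the groups, a share that was not counted over all genes. Of the 8, 6 were called lower, where 30.7% of all genes tested were called lower, 9.61% higher and 40.3% in either direction. The log2 differences were -0.99 ± 0.22 for Cd163, -0.80 ± 0.27 for Timd4, -0.44 ± 0.10 for Csf1r, -0.42 ± 0.09 for C1qc, -0.38 ± 0.08 for C1qa and -0.36 ± 0.10 for C1qb. Adgre1 (-0.37 ± 0.15, adjusted p = 0.0597) and Cd68 (-0.41 ± 0.17, adjusted p = 0.0716) did not pass. The median over the 8 genes was -0.42 and that over all genes -0.18. Only Cd163 was still called lower (-0.76 ± 0.22, adjusted p = 0.0119) after rescaling by the median of gene ratios, which took the all-gene median to 0.04 and the share of calls that were higher from 23.8% to 57.9%. The call of Timd4 was lost without floxed vehicle replicate 2 or Villin-Cre vehicle replicate 1. With close libraries averaged 0 of 8 had an unadjusted p under 0.05. The predicted gene Gm26917 took 10.4 to 11.6% of reads in floxed vehicle ileum and 11.5 to 12.2% in Villin-Cre vehicle ileum, and 6.57 to 7.92% and 3.92 to 4.20% with GW3965; its part was not tested. Genes of other cell types differed as well. T and NK cell genes were higher in Villin-Cre vehicle ileum in 6 of 8 cases (summed 51.6 to 53.3 CPM in floxed and 125 to 136 CPM in Villin-Cre libraries), enterocyte genes in 8 of 10 (12620 to 12838 against 16745 to 17078 CPM) and fibroblast genes in 5 of 7 (936 to 968 against 1341 to 1431 CPM). Adipocyte genes were lower in 4 of 6 cases and higher in 1 (137 to 143 against 65.9 to 76.5 CPM), and 0 of 10 smooth muscle genes passed. The part of these lists was not tested.

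Under GW3965 2 of 8 genes passed in the ileum. Besides Cd163, lower, this was Csf1r, higher in Villin-Cre mice (0.31 ± 0.10, adjusted p = 0.0180) although the groups overlapped, where 13.6% of all genes tested were called higher, 38.3% lower and 51.9% in either direction. That call was lost without floxed GW3965 replicate 1 or 2 or Villin-Cre GW3965 replicate 3. The median over the 8 genes was 0.07 and that over all genes -0.24. After rescaling, which took the all-gene median to -0.004 and the share of calls that were higher from 26.1% to 52.1%, 5 genes were called higher in Villin-Cre mice, Csf1r (0.59), Adgre1 (0.44), C1qb (0.40), C1qa (0.36) and C1qc (0.32), and the sign of Cd68 turned from -0.12 to 0.13 (adjusted p = 0.559). With close libraries averaged 0 of 8 passed, and only Cd163 had an unadjusted p under 0.05.

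Genes of the other macrophage lists did not all follow in the ileum, and which cells held their RNA was not tested. With GW3965, 20.9% of all genes tested were called lower and 14.7% higher in floxed mice, and 31.1% and 21.5% in Villin-Cre mice. Of 12 general macrophage genes, GW3965 lowered 8 and raised 1 in floxed mice (median -0.61; 8 lowered and 3 raised without the library that stood apart) and lowered 6 and raised 2 in Villin-Cre mice (median -0.51). Mpeg1 fell from 75.5 ± 3.38 to 28.5 ± 1.59 CPM and from 44.0 ± 0.855 to 29.9 ± 0.593 CPM, whereas Ctss rose from 115 ± 6.54 to 137 ± 20.6 CPM and from 113 ± 2.31 to 156 ± 2.86 CPM. Ctss is also expressed outside macrophages. Lyz2 stood at 60.1 ± 2.53 and 65.7 ± 33.0 CPM in floxed mice (-0.04 ± 0.27, adjusted p = 0.933) and fell from 40.0 ± 3.97 to 17.6 ± 0.982 CPM in Villin-Cre mice (-1.16 ± 0.27, adjusted p = 0.00188). The SD of 33.0 CPM leaves the floxed change of Lyz2 unsettled. General macrophage genes summed to 369 and 366 CPM in floxed GW3965 replicates 1 and 2 and to 240 CPM in replicate 3, the library that stood apart. Lyz2 without that library is not given here. The lipid-associated list, of which 6 of 7 genes could be tested, gave 1 higher and none lower in floxed mice (median 0.21) and 1 higher and 4 lower in Villin-Cre mice (median -1.01). Lgals3 was at 153 ± 9.78 and 154 ± 18.9 CPM in floxed mice (adjusted p = 0.977) and rose from 152 ± 8.39 to 275 ± 6.05 CPM in Villin-Cre mice. Among 8 scavenger and uptake genes 6 fell and 2 rose in floxed mice: Mertk, a receptor for the uptake of dying cells, rose from 102 ± 4.17 to 190 ± 33.6 CPM, and in Villin-Cre mice from 109 ± 1.15 to 313 ± 3.09 CPM, while Stab1 fell by 1.00 ± 0.06 in floxed and rose by 0.34 ± 0.06 in Villin-Cre mice. Of 7 genes of the CSF1 axis and transcription factors, 4 fell and 1 rose in floxed and 5 fell and 1 rose in Villin-Cre mice. Irf8 fell from 308 ± 4.63 to 124 ± 36.3 CPM and from 187 ± 7.44 to 67.3 ± 2.97 CPM and Maf rose from 497 ± 13.3 to 866 ± 22.4 CPM and from 663 ± 5.39 to 888 ± 5.46 CPM. Kupffer cell identity genes, of which 7 of 10 could be tested, gave 2 lower and 1 higher in floxed and 2 lower and 2 higher in Villin-Cre ileum.

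Genes of other cell types moved with GW3965 in the ileum, where 20.9% of all genes tested were called lower and 14.7% higher in floxed mice. In Villin-Cre mice these shares were 31.1% and 21.5%. Enterocyte genes rose in 10 of 10 cases in each genotype, with summed levels of 12620 to 12838 CPM in floxed vehicle, 20368 to 21534 in floxed GW3965, 16745 to 17078 in Villin-Cre vehicle and 33123 to 33782 CPM in Villin-Cre GW3965 libraries. Smooth muscle genes fell in 10 of 10 cases in each genotype, with sums of 7646 to 7655, 3173 to 4748, 8212 to 8473 and 1311 to 1334 CPM in the same order. Fibroblast genes fell in 7 of 7 cases in each, with sums of 936 to 968, 472 to 782, 1341 to 1431 and 429 to 456 CPM. Monocyte genes summed to 423 to 448, 216 to 266, 230 to 233 and 195 to 202 CPM. Most of each sum was 1 gene, Plac8, at 415 ± 12.6, 229 ± 22.3, 212 ± 0.858 and 187 ± 3.79 CPM. Cx3cr1, the next of that list, stood at 12.5 ± 0.220, 8.47 ± 0.886, 11.8 ± 1.19 and 8.32 ± 0.434 CPM. The sums of the 10 macrophage genes were 229 to 239, 96.8 to 114, 168 to 183 and 114 to 116 CPM. B cell genes summed to 8.05 to 9.77 CPM in floxed vehicle, 9.30 to 11.2 CPM in Villin-Cre vehicle and 3.92 to 5.15 CPM in Villin-Cre GW3965 libraries. In floxed GW3965 ileum they summed to 127 and 124 CPM in replicates 1 and 2 and to 5.62 CPM in replicate 3, the library that stood apart. Without it the floxed GW3965 sums were 3173 to 3234 CPM for smooth muscle and 472 to 478 CPM for fibroblasts. In floxed and then in Villin-Cre ileum, dendritic cell genes fell in 4 and 5 of 7 cases and rose in 1 and 0, endothelial genes fell in 3 and 2 of 6, and plasma cell genes fell in 2 and 4 of 6 and rose in 1 and 1 (2 in floxed without that library). T and NK cell genes rose in 3 of 8 in floxed (4 without that library) and fell in 8 of 8 in Villin-Cre mice, and adipocyte genes rose in 6 and 3 of 6. No gene of these lists was at 0 in all ileum libraries, and the part of these cell types in the changes of the macrophage genes was not tested.

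Whether the response to GW3965 differed by genotype was tested as an interaction, in which the floxed change is subtracted from the Villin-Cre change. In the ileum 4 of 8 genes differed, all with the smaller fall in Villin-Cre mice: Csf1r by 0.75 ± 0.14 (adjusted p = 7.08e-04), C1qb by 0.49 ± 0.14, C1qc by 0.47 ± 0.13 and C1qa by 0.46 ± 0.12, where 14.6% of all genes tested were called higher, 18.4% lower and 33% in either direction. Cd163 had the opposite sign (-0.65 ± 0.31, adjusted p = 0.123), and Adgre1 (0.56 ± 0.21, adjusted p = 0.0563), Timd4 and Cd68 did not pass. Without the ileal library that stood apart Adgre1 (0.65 ± 0.23, adjusted p = 0.0219) and Cd163 (-0.83 ± 0.31, adjusted p = 0.0314) passed as well. In the liver 2 of 10 differed, C1qc by -0.52 ± 0.12 (adjusted p = 0.00827) and Cd163 by -0.62 ± 0.16 (adjusted p = 0.0127), a larger fall in Villin-Cre mice, where 9.7% of all genes were called lower, 10.2% higher and 19.9% in either direction. Without the liver library that stood apart 9 of 10 were called lower, all but Adgre1, with Marco at -1.64 ± 0.05, Clec4f at -0.60 ± 0.05, Csf1r at -0.56 ± 0.05 and Timd4 at -0.53 ± 0.15. Over all genes the same fit took negative liver interactions from 1699 to 3066. Rescaling moved the share of all calls that were higher in the liver from 51.2% to 61.2% and kept these 4 and 2 calls. With close libraries averaged 0 genes had an unadjusted p under 0.05 in either tissue.

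The genes whose 4 group means ran closest to Csf1r, C1qa and Clec4f were taken by the root mean square difference of centred log2(CPM + 0.5) means, among 13578 protein-coding genes in the ileum and 12900 in the liver at 1 CPM or more. In the ileum those nearest to C1qa included 2 of the 10 genes, C1qb (0.018) and Adgre1 (0.036), with Duoxa1 (0.015), the Fc receptor gene Fcgr4 (0.045) and Aldh1a3 (0.048). Nearest to ileal Csf1r were Loxl4 (0.043), Trpc6 (0.051), Aoah (0.066), Apobr (0.077) and the mannose receptor gene Mrc1 (0.082). In the liver Thbs2 (0.005), Ddx39 (0.011), Ucp2 (0.016), Cd80 (0.022) and Afap1 (0.024) lay nearest to Csf1r, and Ttc12 (0.008), Otulinl (0.031), the kinase gene Syk (0.036), St3gal2 (0.036) and Chrnb1 (0.037) nearest to C1qa. Those nearest to Clec4f were Tsc22d3 (0.014), Qrsl1 (0.016), Uhrf1bp1l (0.020), Faap24 (0.024) and Zfp626 (0.027). Without the libraries that stood apart, 2 of the 5 nearest to Csf1r and 1 of the 5 nearest to C1qa were the same in the ileum, and 1 of 5 for Csf1r, 2 of 5 for C1qa and 2 of 5 for Clec4f in the liver. C1qb was then the nearest to ileal C1qa (0.032), and Adgre1 was not among the 5. Each likeness rests on 4 group means, and none of the 5 genes nearest to Clec4f was among the lists of macrophage genes.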

How the data were processed

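For each tissue the authors deposited log2 values per gene and library. The submitters' processing notes list bcl2fastq, Subread, STAR 2.5.1a and featureCounts 1.4.6-p5, with the build GRCm38. Per the labels' protocols, ribosomal RNA was removed with RNase H. Annotation release, strand setting and log formula are not given in the sources used. Repeated entries (276 per table) were dropped, leaving 40481 genes. The lowest log2 value, -5.62 in every library, was taken as 0 reads. On that basis 100% of values under 200 reads were whole multiples of 1 read (tolerance 0.05 reads), which gave reads and CPM. Of recovered numbers from 10 to 200 reads, 55.0 to 57.6% were even, so some fragments may have been counted as 2 reads.

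Tests used limma 3.58.1 (R 4.3.3) on log2(CPM + 0.5), for genes that reached 0.5 CPM in 3 libraries or more. The 12 libraries of a tissue were fitted together with a mean for each group, and p-values were adjusted by Benjamini-Hochberg over all genes tested. The fit was tested on simulated data. Groups came from the sample labels. Named are the 10 genes, up to 3 genes of each other macrophage list and 2 of each other list by highest mean CPM, and the 5 nearest genes by group means; exceptions are marked, and 1 gene that the rule names is not reported here. The genes and lists were chosen with earlier results of these data known. The alternatives were libraries rescaled on the median gene ratio, a pseudocount of 2, the deposited values, voom on recovered reads, no filter, only the groups compared, the replicate number as a block, each library left out, and averaging of close libraries. Libraries of a group were averaged if linked through pairs that differed by less than 4 times the counting variance. Replicates 2 and 3 of floxed vehicle ileum, at 4.11 times, were so joined through replicate 1. Chosen after the data were seen, list counts and nearest genes were also taken without the libraries that stood apart. Gene positions and exon lengths are from the GENCODE M21 annotation of GRCm38, promoter sequences from RefSeq.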

Additional observations from a re-analysis of the deposited data

Results flagged for a closer look

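The response to GW3965 differed between the genotypes by a test of the interaction for 4 genes in the ileum, Csf1r (0.75 on the log2 scale), C1qb (0.49), C1qc (0.47) and C1qa (0.46), and for 2 in the liver, C1qc (-0.52) and Cd163 (-0.62). Positive values mean a smaller fall in Villin-Cre mice and negative values a larger one. Of all genes tested, 14.6% were called higher, 18.4% lower and 33% either way in the ileum, and 10.2%, 9.7% and 19.9% in the liver. Without floxed GW3965 replicate 1 the liver count was 9, and with close libraries averaged it was 0 in both tissues.

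The genotype difference under vehicle had opposite signs in ileum and liver, with groups that did not overlap in either tissue, for 8 genes. In the ileum and then in the liver it was -0.44 and 0.84 for Csf1r, -0.37 and 0.82 for Adgre1, -0.41 and 1.69 for Cd68, and -0.38 and 1.15 for C1qa. For C1qb it was -0.36 and 1.15, for C1qc -0.42 and 1.16, for Cd163 -0.99 and 1.07, and for Timd4 -0.80 and 0.52. Under GW3965 Cd163 showed the same pattern, at -1.64 and 0.44. Over all genes tested the medians under vehicle also had opposite signs, -0.18 in the ileum and 0.26 in the liver. There 30.7% of genes were called lower in the ileum and 45.1% higher in the liver. The share of all genes with opposite signs and no overlap was not counted. The difference between the tissues was not tested. Of the 6 ileal calls under vehicle, that of Cd163 held after rescaling by the median of gene ratios and the other 5 did not.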

How the results depend on the processing

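Over 90 results on single genes, the alternatives gave 1218 values with the same call, 100 that lost it, 30 that gained one and 2 that reversed. Averaging close libraries moved every count of called genes that was above 0. It leaves 5 units per tissue with 1 residual degree of freedom, which is the gap between the floxed GW3965 library that stood apart and the mean of its group's other 2, so it says nothing of stability. In the ileum 0 were then lower with GW3965 in either genotype, 0 lower in Villin-Cre mice under vehicle, 0 higher and 0 lower under GW3965, and 0 differed by interaction. In the liver 0 were lower with GW3965 in either genotype, 0 higher in Villin-Cre mice under vehicle, 1 higher under GW3965 (Cd68), and 0 differed by interaction. Over all genes averaging left 14 to 1461 calls per ileal comparison (6154 to 9799 without it) and 0 to 1590 in the liver (2081 to 9951). Rescaling left 1 ileal gene lower under vehicle and made 5 higher under GW3965 between genotypes. Testing only the groups compared left 0 higher in Villin-Cre ileum under GW3965, 1 lower with GW3965 in floxed liver and 10 lower in Villin-Cre liver. The deposited log2 values gave 1 negative ileal interaction, and no filter left 2 genes lower in floxed liver.

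Leaving out 1 library at a time gave 0 to 1 genes higher between genotypes under GW3965 in the ileum and 0 to 1 negative ileal interactions. In the liver it gave 0 to 3 higher and 2 to 4 lower with GW3965 in floxed mice, 0 to 1 lower between genotypes under GW3965 and 2 to 9 negative interactions. The GW3965 effect in floxed liver ranged from -0.31 to 0.11 for Csf1r and from -0.14 to 0.17 for Clec4f, and both reversed without floxed GW3965 replicate 1. On voom weights Cd68 lost its call with GW3965 in Villin-Cre ileum (-0.48, adjusted p = 0.0513) and in floxed liver (-0.31, adjusted p = 0.0574). With the replicate number as a block 90 of 90 calls were the same. Deviations of libraries with the same number correlated at -0.040 to 0.055 (ileum) and -0.026 to 0.031 (liver), so the numbers were not taken to pair libraries. Over all genes, rescaling changed the calls between genotypes, higher then lower, from 1792 and 5735 to 3751 and 2732 (ileum, vehicle), from 2529 and 7153 to 4778 and 4397 (ileum, GW3965), from 7894 and 2057 to 3793 and 3898 (liver, vehicle) and from 7162 and 2636 to 4581 and 4353 (liver, GW3965). Calls for GW3965 in Villin-Cre liver were 499 and 1582, with rescaling 932 and 625, with only the groups compared 1143 and 3675, and without any 1 of their 6 libraries 295 to 320 and 781 to 966. In floxed liver 1814 genes were higher with GW3965, 1148 with only the groups compared and 2733 without GW3965 replicate 1, which also took negative liver interactions from 1699 to 3066. Depth limits the ileal values of Marco, Clec4f and Timd4.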
